A study of Mus musculus with 2 samples.

Results

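The 10 genes described here act in lipid uptake, storage and efflux by macrophages: Lpl, Cd36, Trem2, Fabp5, Plin2, Abca1, Abcg1, Apoe, Pltp and Gpnmb. They were chosen by symbol, and each symbol matched 1 of the 31053 gene rows that both count matrices hold. The cells came from the colons of bone marrow chimeric mice. Marrow from CD45.2 donors, either IL-10R KO (lacking Il10rb) or IL-10R/CerS2 DKO (lacking Il10rb and Cers2), had been transferred into CD45.1 recipients, so by the labels both groups lacked the IL-10 receptor in engrafted cells, and no group with an intact receptor was among the libraries analysed here. Cells were sorted on CD11b, CD11c and CD64 and sequenced as 1 droplet library per genotype, called KO and DKO below. The sources used here do not give the number of animals pooled into a library, and no gate on CD45.2 is described, so remaining recipient cells cannot be told apart from engrafted ones except through Cers2. Age and sex were not given.

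Macrophages take up lipid from lipoproteins and from dying cells. Lipoprotein lipase frees fatty acids from lipoprotein particles, scavenger receptors such as CD36 take them in, binding proteins carry them, and the surplus is stored in droplets coated by perilipins. Cholesterol leaves the cell through the transporters ABCA1 and ABCG1 to acceptors such as apolipoprotein E, and the nuclear receptors LXR and PPARγ are known to control many of these genes. In the colon, monocytes enter from blood and mature through intermediate stages into resident macrophages that clear dying cells.

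After filtering, 2443 KO and 730 DKO cells were kept, of which 1517 and 318 were monocyte/macrophage-like, with a median of 5497 and 5405 UMIs (unique transcript molecules counted) per cell. The 2 libraries shared 1 barcode sequence. Although the cells had been sorted to leave out lymphocytes and neutrophils, B cell-like (229 KO and 166 DKO), T cell-like (148 and 45) and neutrophil-like (160 and 48) barcodes were present, and these served as a background for free RNA. Cers2, the gene deleted only in the DKO, had 442 UMIs in the KO class and 0 in the DKO class. Over all barcodes it had 554 and 3 UMIs. Il10rb, deleted in both donors, still had 39 KO and 8 DKO UMIs in the class (4.49 and 4.51 CPM), and whether these came from recipient cells or from the remaining part of the gene was not tested. Among markers of other cell types in the class, the neutrophil gene S100a8 was higher in KO, at 12.4 CPM against 1.13 in DKO. Cd79a of B cells had 31 KO and 3 DKO UMIs, Cd3e of T cells 9 and 0, and Flt3 of dendritic cells 6 and 3, with overlapping intervals. Their part in the results was not tested. Within the class, marker detection gave 6 states: classical monocytes (364 KO and 79 DKO cells), intermediate cells carrying both monocyte genes and C1q (137 and 25), C1q-high macrophages (482 and 94), resident-like macrophages with at least 2 of Mrc1, Retnla, C4b, Fcrls, Cd163 and Folr2 (73 and 56), inflammatory cells with at least 2 of Arg1, Nos2, Ptges, Slc7a2 and Cxcl3 (199 and 1) and nonclassical monocytes (96 and 27). The rest stayed ungated (166 and 36). Of the 130 cells that passed the resident-like marker count, 80 had exactly 2 of these markers, so many lay at the edge of that gate. Gene positions are from GENCODE M21 (GRCm38, the mm10 assembly). Levels below are UMIs per 1000000 UMIs of the state (CPM) with exact 95% Poisson intervals, and differences are log2 ratios of DKO over KO with exact 95% intervals. With 1 library per genotype no test between genotypes exists. Intervals of levels and ratios cover counting error only, not the spread between cells or between animals. Intervals of shares of cells, given further below, also leave out the spread between animals. The inflammatory state had 1 DKO cell and was not compared.

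With the gates used here, Lpl, Cd36 and Pltp were all highest in resident-like macrophages in both libraries. Lpl (chr8:68880491-68907448, plus strand), which encodes lipoprotein lipase, was at 239 CPM (193 to 292) in KO resident-like cells, against 48.8 in C1q-high, 35.6 in intermediate, 16.0 in inflammatory, 9.0 in classical and 4.23 CPM in nonclassical cells. In the DKO library Lpl was at 468 CPM (395 to 551) in resident-like cells, 99.9 in C1q-high, 83.8 in intermediate, 46.0 in classical and 9.0 CPM in nonclassical cells. The resident-like level of Lpl was 4.90-fold that of the next state in KO and 4.69-fold in DKO, with intervals apart, while the intervals of all lower neighbours in the order overlapped.

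Cd36 (chr5:17781690-17888801, minus strand), the fatty acid and scavenger receptor, was also carried by nonclassical monocytes. In KO it was at 314 CPM in resident-like, 157 in nonclassical, 55.4 in C1q-high, 29.5 in intermediate, 17.5 in inflammatory and 10.7 CPM in classical cells. In DKO it was at 426 CPM in resident-like and 378 in nonclassical cells, whose intervals overlapped, then 119 in C1q-high, 41.9 in intermediate and 7.27 CPM in classical cells. Both libraries therefore placed Cd36 high in nonclassical and low in classical monocytes. The peak of Cd36 depended on the gates. When states were taken from sub-clusters of the class, none was named resident-like. Cd36 was then highest in the nonclassical sub-cluster, at 460 CPM in KO and 500 in DKO. The next sub-cluster, named C1q-high, had 148 and 269 CPM.

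Pltp (chr2:164839518-164857711, minus strand), the phospholipid transfer protein that remodels lipoproteins, ranged from 8.0 CPM (4.0 to 14.3) in KO inflammatory cells to 583 CPM (511 to 663) in KO resident-like cells. The KO levels of Pltp between these were 153 CPM in C1q-high, 124 in intermediate, 91.0 in nonclassical and 27.6 in classical cells. In DKO, Pltp was at 678 CPM in resident-like, 262 in C1q-high, 204 in intermediate, 72.0 in nonclassical and 36.3 CPM in classical cells. The annotated span of Pltp overlaps that of Ctsa on the other strand, a gene for a lysosomal carboxypeptidase.

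**Figure D1:**
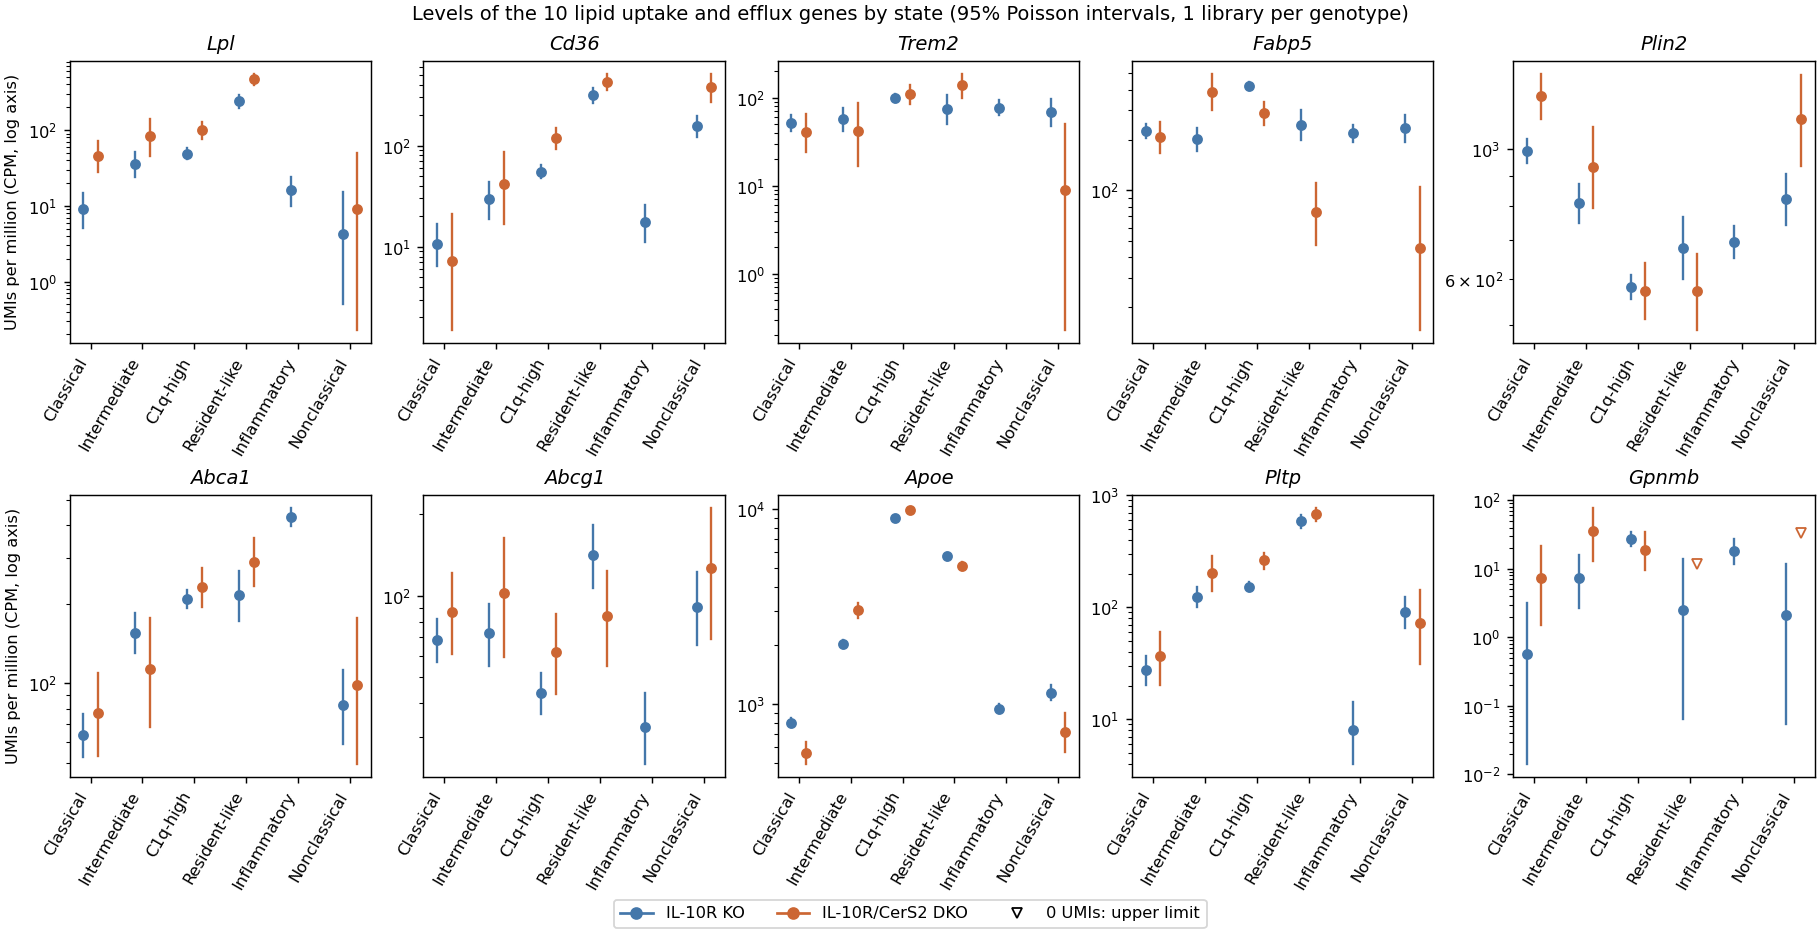
Level of each of the 10 genes (y axis, CPM on a log axis whose range differs by gene) in each state (x axis) in the KO (blue) and DKO (orange) library, with 95% Poisson intervals; open triangles give the upper limit where no UMI was counted, and the inflammatory state is drawn for KO alone. Lpl, Cd36 and Pltp peak in resident-like cells in both libraries, Apoe in C1q-high cells, Plin2 in classical monocytes, and Abca1 in the KO inflammatory cells.

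The secreted acceptor Apoe (chr7:19696109-19699188, minus strand) had a different peak. It was at 8980 CPM in KO and 9898 CPM in DKO C1q-high macrophages, then 5719 and 5108 CPM in resident-like cells, 2035 and 3018 in intermediate, 1146 and 720 in nonclassical, and 803 and 564 CPM in classical cells, with 947 CPM in KO inflammatory cells. C1q-high cells gave 76.7% of the class's Apoe UMIs in KO and 69.2% in DKO, against 35.0% and 32.8% of all UMIs. A single DKO resident-like cell held 35.5% of that state's Apoe UMIs (562 of 1582), and 1 KO cell held 454 of 2275.

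Abca1 (chr4:53030787-53159895, minus strand), which loads cholesterol onto apolipoprotein A-I, was the sole member with its highest level in inflammatory cells. It was at 430 CPM (396 to 466) in KO inflammatory cells, 1.99-fold the next state, and was detected in 163 of 199 of them. Elsewhere Abca1 was at 216 CPM in KO and 291 in DKO resident-like cells, 210 and 232 in C1q-high, 156 and 114 in intermediate, 82.5 and 99 in nonclassical, and 63.6 and 77.5 CPM in classical cells. Its partner Abcg1 (chr17:31057675-31117988, plus strand), which exports cholesterol to high-density lipoprotein, was low in the same KO inflammatory cells, at 32.7 CPM (23.9 to 43.8). Abcg1 reached 141 CPM in KO resident-like cells, where the DKO level was 84.0, and it was at 91.0 and 126 CPM in nonclassical, 72.4 and 102 in intermediate, 68.6 and 87.2 in classical, and 43.5 and 62.0 CPM in C1q-high cells. Thus in KO the highest state of Abca1 was the lowest of Abcg1, although the Abcg1 interval there overlapped that of C1q-high cells. An annotated ribosomal RNA gene, Gm25447, lies within Abcg1 on the same strand.

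RefSeq promoter entries (250 bases before to 50 after a transcript start, GRCm38.p6) existed for 7 of the 10 genes. They were searched on both strands for a strict LXR-type direct repeat with 4 spacer bases (DR4, 2 copies of AGGTCA with 4 bases between), a relaxed DR4 (2 copies of GGTNA with 5 bases between) and a relaxed direct repeat with 1 spacer base of the kind PPARγ binds (DR1, 2 copies of GGTNA with 2 bases between). These are found in 0.0152%, 0.718% and 1.1% of all 32851 promoter entries. Every strict DR4 also matches the relaxed DR4. Of the members' 9 entries, the relaxed DR4 matched in Abca1 alone, at bases 184 to 198 on the reverse strand, and neither the strict DR4 nor the DR1 matched any. The Abca1 promoter is shown because it held the match, and those of Cd36 and Pltp because these genes were highest in resident-like cells. They lie on the minus strand at chr4:53159846-53160145, chr5:17835847-17836146 and chr2:164857659-164857958, are written 5′ to 3′ along the gene, and capitals mark the DR4 match.
Abca1: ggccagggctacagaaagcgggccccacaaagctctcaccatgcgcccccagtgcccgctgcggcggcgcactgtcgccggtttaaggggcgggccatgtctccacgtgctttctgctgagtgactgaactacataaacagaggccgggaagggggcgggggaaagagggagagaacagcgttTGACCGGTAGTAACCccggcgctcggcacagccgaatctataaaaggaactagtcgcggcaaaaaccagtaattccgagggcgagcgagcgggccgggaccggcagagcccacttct
Cd36: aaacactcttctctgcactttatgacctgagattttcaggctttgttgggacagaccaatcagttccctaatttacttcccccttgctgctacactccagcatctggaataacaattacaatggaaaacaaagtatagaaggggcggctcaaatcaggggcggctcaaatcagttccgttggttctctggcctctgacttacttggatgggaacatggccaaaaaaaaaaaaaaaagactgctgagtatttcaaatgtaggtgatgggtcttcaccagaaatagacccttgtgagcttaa
Pltp: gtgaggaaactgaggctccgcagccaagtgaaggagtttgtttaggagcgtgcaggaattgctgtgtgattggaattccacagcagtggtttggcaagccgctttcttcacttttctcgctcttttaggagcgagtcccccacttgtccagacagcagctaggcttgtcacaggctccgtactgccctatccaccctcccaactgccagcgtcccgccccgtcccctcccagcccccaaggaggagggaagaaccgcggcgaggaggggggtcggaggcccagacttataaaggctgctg
The match is a description of these letters, and the windows without one say nothing on the factors. The Cd36 entry starts inside the annotated gene span, at 1 of its transcript starts.

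With the gates used here, Fabp5 (chr3:10012548-10016607, plus strand), a fatty acid binding protein, differed little between KO states apart from C1q-high macrophages. Its KO level was 422 CPM in C1q-high cells and between 201 and 246 CPM in the other 5 states, whose intervals overlapped from neighbour to neighbour. In DKO it was at 389 CPM in intermediate, 289 in C1q-high, 208 in classical, 74.3 in resident-like and 45.0 CPM in nonclassical cells. Fabp5 UMIs were unevenly spread: 1 DKO C1q-high cell held 37 of that state's 168 UMIs. In KO, 1 inflammatory cell held 90 of 302 and 1 nonclassical cell 43 of 111. The flat KO pattern depended on the gates. With sub-clusters as states, KO Fabp5 was at 254 to 477 CPM in those named C1q-high. It was at 201 CPM in the classical, 78.7 in the inflammatory and 51.2 in the nonclassical sub-cluster. A processed pseudogene of Fabp5 is annotated, so the assignment of its reads may be less certain. Read assignment was not examined for any member.

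Plin2 (chr4:86648386-86670060, minus strand), the coat protein of lipid droplets, was detected in 1325 of 1517 KO and 271 of 318 DKO cells of the class. It was highest in classical monocytes in both libraries, at 993 CPM in KO and 1233 in DKO, followed by nonclassical (821 and 1125) and intermediate cells (808 and 934). C1q-high (581 and 573) and resident-like cells (679 and 572) had the lower levels, with KO inflammatory cells at 694 CPM.

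Trem2 (chr17:48346401-48354147, plus strand), a lipid-sensing receptor that signals through TYROBP, was at 99.5 CPM in KO and 110 in DKO C1q-high cells. It was at 75.4 and 139 CPM in resident-like, 57.7 and 41.9 in intermediate, 51.8 and 41.2 in classical, and 69.8 and 9.0 CPM in nonclassical cells, with 77.1 CPM in KO inflammatory cells. The DKO nonclassical level of Trem2 was 1 UMI. Gpnmb (chr6:49036546-49070929, plus strand), a glycoprotein of lipid-laden macrophages, was rare. It had 132 UMIs in 45 of 1517 KO cells and 28 UMIs in 9 of 318 DKO cells. Of the KO UMIs of Gpnmb, 62.9% lay in C1q-high cells (27.4 CPM), and resident-like cells had 1 UMI in KO and 0 in DKO, with an upper limit of 11.9 CPM. The state with the highest levels of Lpl, Cd36 and Pltp thus gave at most 1 UMI of Gpnmb per library.

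**Figure D2:**
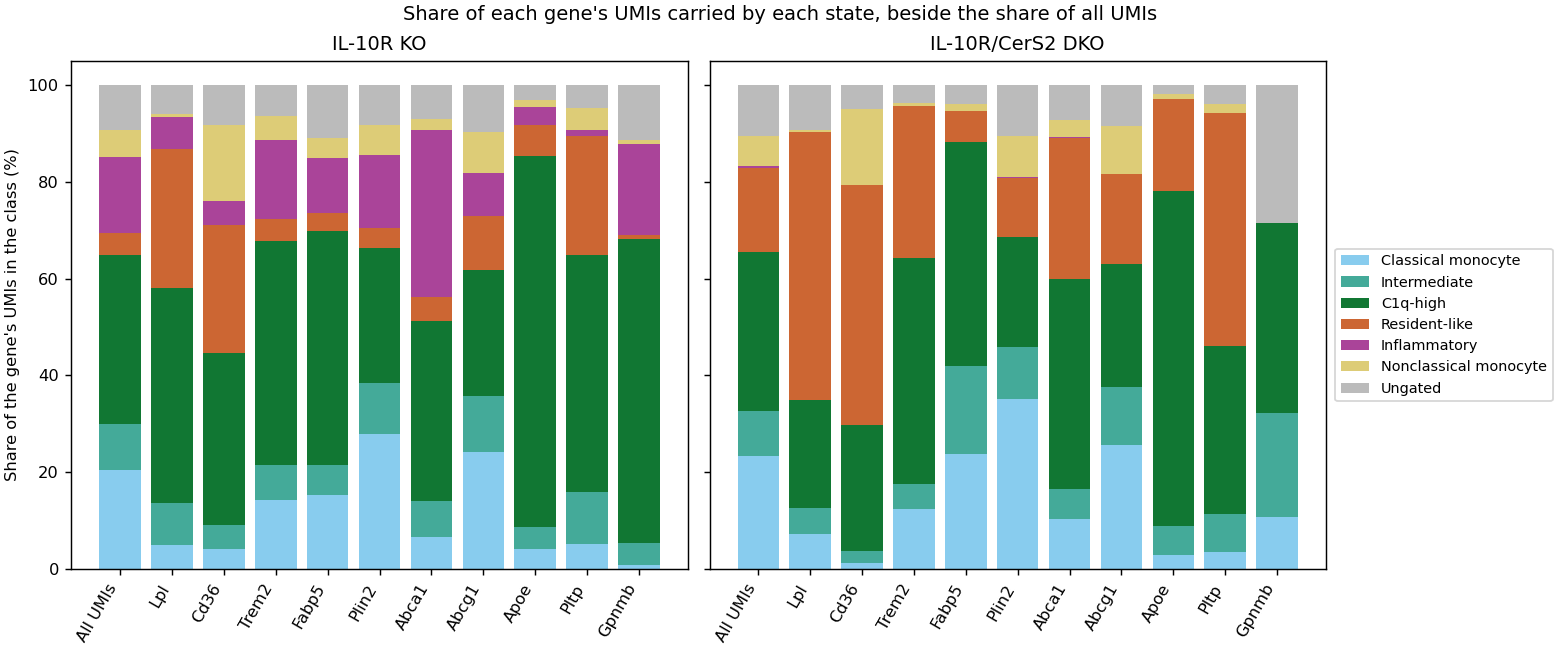
Share of each gene's UMIs in the class (y axis, percent) that came from each state (colours), with the share of all UMIs as the first bar, in KO (left) and DKO (right). Resident-like cells gave 55.6% of Lpl, 49.6% of Cd36 and 48.2% of Pltp UMIs in DKO from 17.5% of all UMIs, and inflammatory cells gave 34.5% of Abca1 UMIs in KO from 15.8% of all UMIs.

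Over the whole class, 3 of the 10 genes were at least 2-fold higher in DKO and 0 were at least 2-fold lower. Among all 10779 genes with at least 10 UMIs, 6.16% were at least 2-fold higher and 4.93% at least 2-fold lower (664 and 531 genes; 484 and 630 with TMM scaling). All 10 members passed that filter. Their median log2 ratio was 0.18, beside 0.10 over all genes tested. TMM scaling lowered every class-wide log2 ratio by 0.12, which did not change which members passed 2-fold and put Trem2 (−0.07) and Gpnmb (−0.05) below 0.

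Lpl went from 38.2 CPM in KO to 147 in DKO (log2 ratio 1.95, 1.71 to 2.18). Cd36 went from 54.5 to 150 CPM (1.46, 1.24 to 1.68). Pltp went from 109 to 246 CPM (1.18, 1.01 to 1.34). Each of these 3 genes had its KO and DKO intervals apart. Fabp5 was the member furthest on the other side, at 305 CPM in KO and 204 in DKO (−0.58, −0.74 to −0.42).

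The other class-wide ratios were small. Abcg1 went from 58.3 to 79.6 CPM (0.45, 0.17 to 0.72), Apoe from 4092 to 4686 CPM (0.20, 0.16 to 0.23) and Plin2 from 728 to 820 CPM (0.17, 0.09 to 0.25). The intervals of Trem2 (75.0 and 77.3 CPM), Gpnmb (15.2 and 15.8 CPM) and Abca1 (198 and 175 CPM) included a ratio of 1. For Trem2 that interval ran from −0.23 to 0.31, and for Gpnmb from −0.59 to 0.65. For Abca1 it ran from −0.35 to 0.0003 and barely included 0.

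The class-wide ratios mix level with the make-up of the class. Resident-like cells gave 4.58% of the class's UMIs in KO and 17.5% in DKO, and inflammatory cells gave 15.8% and 0.332%. With the inflammatory state left out of both libraries, an alternative chosen after seeing the data, the log2 ratio was 1.80 for Lpl, 1.29 for Cd36 and 0.95 for Pltp. With the remaining states also weighted as in KO, it was 1.27 for Lpl, 0.86 for Cd36 and 0.59 for Pltp, so that 1 member stayed at least 2-fold higher. Abca1 changed side, from −0.17 over all cells to 0.19 (3.9e-05 to 0.37) without the inflammatory state and 0.09 with the KO weights. Fabp5 moved little, to −0.65 and −0.48.

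**Figure D3:**
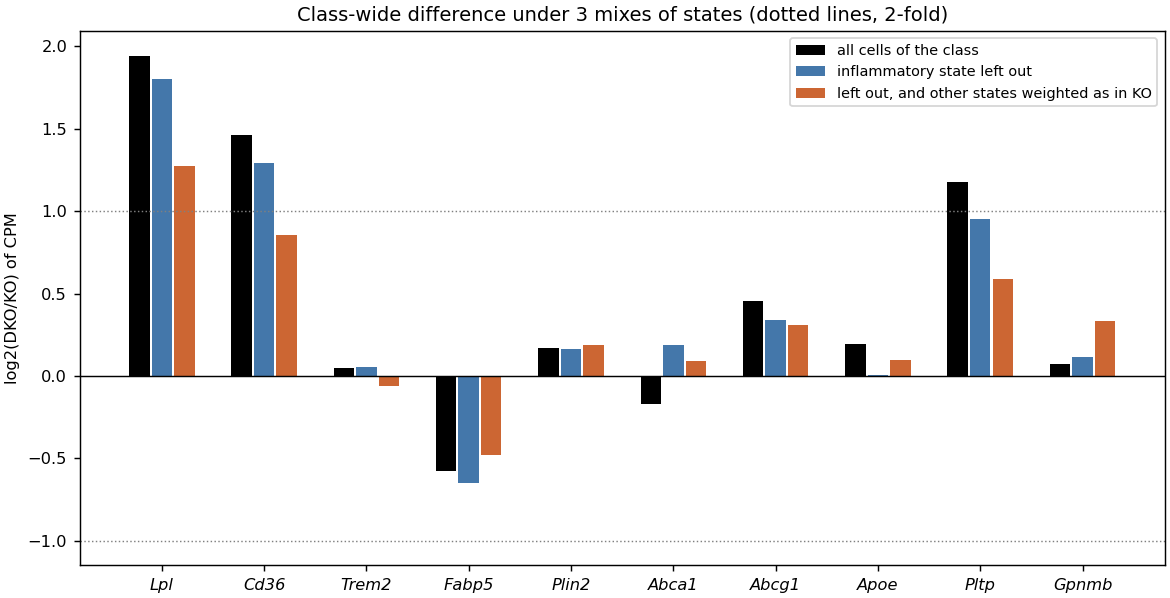
Log2 ratio of DKO over KO (y axis) for each gene over all cells of the class (black), without the inflammatory state (blue), and with the remaining states weighted as in KO (orange); dotted lines mark 2-fold. Lpl goes from 1.95 to 1.27, Cd36 from 1.46 to 0.86 and Pltp from 1.18 to 0.59, while Fabp5 stays between −0.65 and −0.48.

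Within states, 5 of which had at least 20 cells in both libraries, Lpl was higher in DKO in each. Its log2 ratio was 0.97 (0.59 to 1.36) in resident-like, 1.04 (0.57 to 1.48) in C1q-high, 1.26 (0.20 to 2.20) in intermediate and 2.35 (1.32 to 3.41) in classical cells. In classical cells that ratio rested on 16 KO and 19 DKO UMIs. In intermediate cells it was 0.19 (−1.46 to 1.39) once the barcodes with the highest doublet scores were removed. Nonclassical cells had 2 KO and 1 DKO UMIs of Lpl, with an interval from −4.79 to 5.35.

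For Cd36 the log2 ratio was 1.11 (0.68 to 1.51) in C1q-high, 1.28 (0.69 to 1.84) in nonclassical and 0.44 (0.08 to 0.80) in resident-like cells, and it included 0 in classical and intermediate cells. The resident-like and nonclassical values of Cd36 depended on how cells were assigned. With 3 rather than 2 markers required, which left 24 KO and 26 DKO resident-like cells, the Cd36 ratio was −0.73 (−1.30 to −0.18), and with states taken from sub-clusters the nonclassical ratio was 0.13.

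Pltp was higher in DKO in C1q-high cells (0.78, 0.50 to 1.05) and intermediate cells (0.73, 0.11 to 1.29). Its intervals included 0 in resident-like (0.22, −0.06 to 0.49), classical and nonclassical cells. Resident-like cells, where Pltp was highest, thus had no difference beyond counting error.

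C1q-high macrophages were the largest state. Cells there could carry 1 resident-like marker. Among the 334 KO and 42 DKO C1q-high cells with none of the 6 resident-like markers, a set chosen after seeing the data, the log2 ratio was 1.32 (0.47 to 2.06) for Lpl, 1.78 (1.12 to 2.39) for Cd36 and 1.01 (0.57 to 1.41) for Pltp. In the same cells Fabp5 was at −0.10 (−0.46 to 0.22), where all C1q-high cells gave −0.54 (−0.78 to −0.31).

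**Figure D4:**
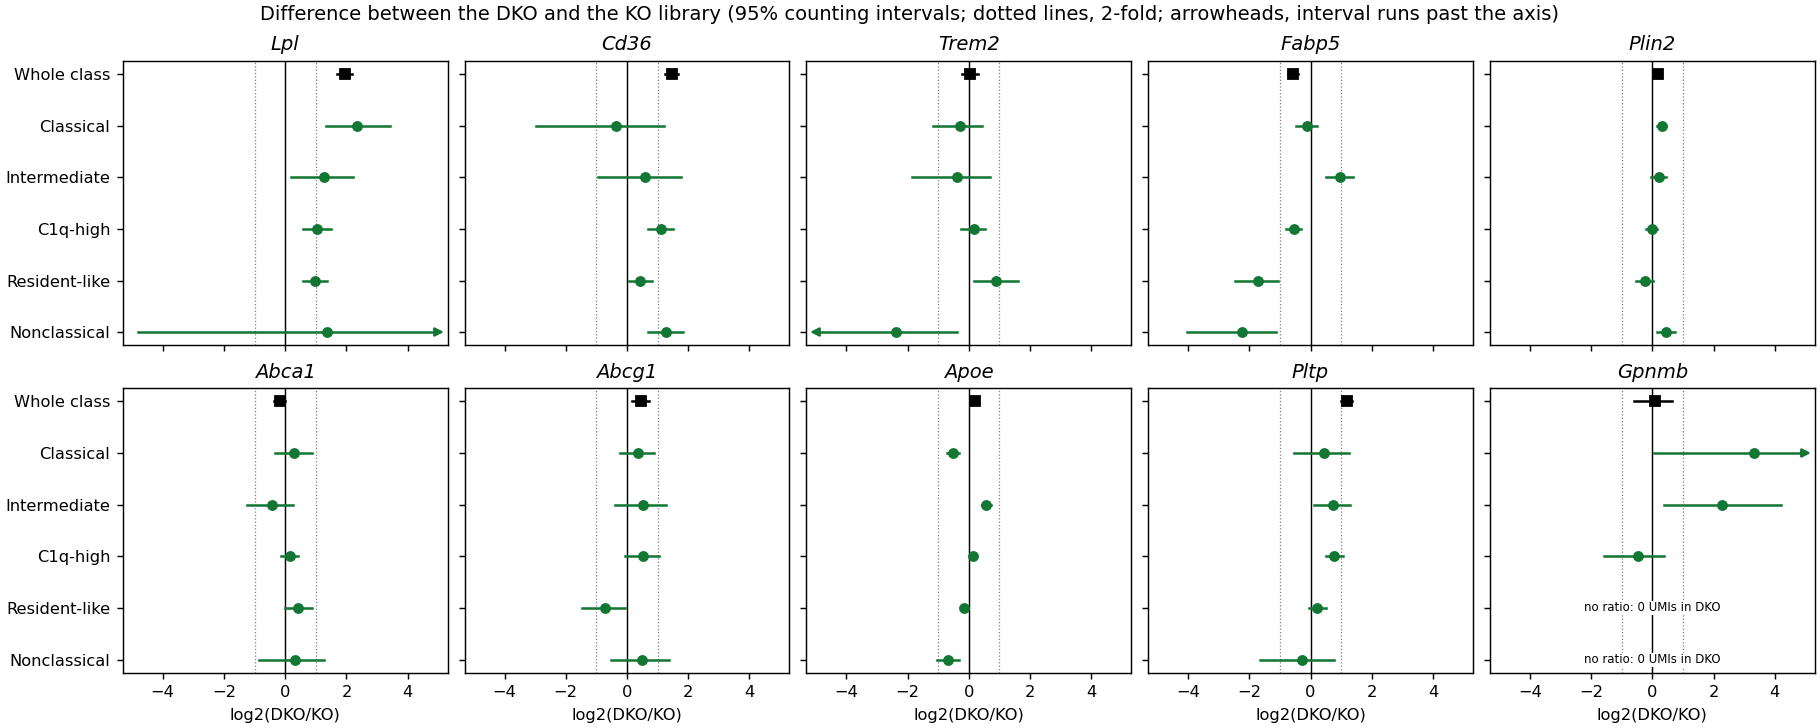
Log2 ratio of DKO over KO (x axis) of each gene over the whole class (black squares) and in each compared state (green circles), with exact 95% counting intervals; the solid line marks equal levels and dotted lines 2-fold. Lpl lies to the right of 0 in every state, and Fabp5 lies to the left in resident-like, C1q-high and nonclassical cells and to the right in intermediate cells.

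Fabp5 was lower in DKO resident-like cells (98 KO and 23 DKO UMIs, log2 ratio −1.71, −2.45 to −1.06), in nonclassical cells (−2.25, −4.03 to −1.12) and in C1q-high cells (−0.54). It was higher in DKO intermediate cells (0.96, 0.51 to 1.37) and nearly equal in classical monocytes (−0.12, −0.48 to 0.22). The intermediate ratio was 0.44 (−0.16 to 0.98) without the single cell that held most Fabp5 UMIs in each library, and 0.14 (−0.39 to 0.62) when the class was set from markers per cell. With sub-clusters as states, the nonclassical ratio was −0.21.

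Apoe, counted more deeply than any other member, had narrow intervals on both sides of 0. Its log2 ratio was 0.57 (0.42 to 0.71) in intermediate and 0.14 (0.10 to 0.18) in C1q-high cells, and −0.16 (−0.26 to −0.07) in resident-like, −0.51 (−0.72 to −0.31) in classical and −0.66 (−1.03 to −0.33) in nonclassical cells. Without the cell richest in Apoe in each library these became 0.16 in intermediate and −0.47 in resident-like cells. With stricter gates (3 markers and 10 C1q UMIs per 10000) the resident-like ratio was 0.50 (0.34 to 0.67) and the classical ratio −0.01 (−0.25 to 0.22). The nonclassical ratio was 0.45 (−0.01 to 0.91) with sub-clusters as states. The monocyte levels were near those of B cell-like cells and above those of the 2 other background sets. B cell-like cells had Apoe at 737 CPM in KO and 710 in DKO, T cell-like cells at 117 and 0, and neutrophil-like cells at 34.2 and 71.1. Classical cells had 803 and 564 CPM and nonclassical cells 1146 and 720. The part of free RNA in these ratios was not tested.

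Trem2 was higher in DKO resident-like cells (30 and 43 UMIs, 0.87, 0.17 to 1.60), where 1 DKO cell held 12 of the 43 UMIs, and lower in nonclassical cells (33 UMIs in KO and 1 in DKO, −2.39, −8.30 to −0.38). The resident-like ratio of Trem2 was 0.61 (−0.18 to 1.43) without the richest cell, and the nonclassical ratio was −0.34 (−6.41 to 2.94) with sub-clusters as states. The Trem2 ratio in C1q-high cells was 0.16 (−0.27 to 0.54). Abcg1 was lower in DKO resident-like cells (56 and 26 UMIs, −0.73, −1.48 to −0.05), and its intervals included 0 in the other 4 states, where the ratio lay between 0.36 and 0.52. Abca1 had intervals that included 0 in all 5 compared states. Plin2 was higher in DKO classical (0.31, 0.17 to 0.46) and nonclassical cells (0.46, 0.15 to 0.75) and at −0.02 (−0.19 to 0.15) in C1q-high cells. Gpnmb had 6 UMIs in each library in intermediate cells (2.29, 0.38 to 4.19), and all 6 in DKO came from 1 cell.

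In C1q-high cells 2 of 10 members (Lpl and Cd36) were at least 2-fold higher, beside 6.88% of genes, and 0 at least 2-fold lower, beside 5.94%. Neither stayed 2-fold higher under every alternative, with lowest log2 ratios of 0.87 for Lpl and 0.97 for Cd36. In resident-like cells 1 of the 9 that passed the filter (Fabp5) was at least 2-fold lower, beside 6.06%, and 0 were at least 2-fold higher, beside 5.9%. In nonclassical cells 2 of 8 (Trem2 and Fabp5) were at least 2-fold lower and 1 (Cd36) at least 2-fold higher, beside 11.1% and 9.72%. None of these nonclassical differences stayed 2-fold under every alternative. The log2 ratios nearest 0 were −0.34 for Trem2, −0.21 for Fabp5 and 0.13 for Cd36. In intermediate cells 2 of 10 (Lpl and Gpnmb, neither of which stayed so under every alternative), and in classical monocytes 1 of 9 (Lpl), were at least 2-fold higher, beside 9.39% and 6.19%, and 0 were at least 2-fold lower in either, beside 9.62% and 6.07%.

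Shares of cells with a UMI were compared after thinning each cell to 2000 UMIs. At that depth Lpl was detected in 17 of 68 KO and 23 of 49 DKO resident-like cells (46.9% in DKO, exact binomial intervals 15.3 to 37.0% and 32.5 to 61.7%) and in 6.96% and 13.8% of C1q-high cells. It was detected in 0 of 137 KO and 0 of 39 DKO T cell-like cells, with upper limits of 2.66% and 9.03%. Cd36 was detected in 29.4% and 49.0% of resident-like and 7.42% and 19.5% of C1q-high cells, against 0.575% and 0.73% of B cell-like cells. Pltp was detected in 61.8% and 63.3% of resident-like and 23.0% and 36.8% of C1q-high cells, against 0.575% and 1.46% of B cell-like cells. Without thinning, Lpl was detected in 39.7% and 57.1%, Cd36 in 53.4% and 58.9%, and Pltp in 87.7% and 85.7% of resident-like cells, and in C1q-high cells in 13.3% and 26.6%, 18.3% and 31.9%, and 42.5% and 51.1%. The thinned cells had a median of 5393 and 5721 UMIs in the resident-like, 6696 and 6303 in the C1q-high and 2636 and 2652 in the B cell-like sets, and 5 and 7, 51 and 7, and 55 and 29 shallower cells were left out of these sets.

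Joint detection was described for Lpl, Cd36 and Pltp, the members found above to be highest in resident-like cells and at least 2-fold higher in the DKO class. Higher joint shares in resident-like or DKO cells follow from that choice and are no separate support. At least 2 of Lpl, Cd36 and Pltp were detected in 22 of 68 KO (32.4%, 21.5 to 44.8) and 28 of 49 DKO (57.1%, 42.2 to 71.2) resident-like cells. From the share of each gene alone, independent detection would give 31.9% and 54.6%. In C1q-high macrophages at least 2 of them were detected in 4.64% (2.86 to 7.08) of KO and 17.2% (9.98 to 26.8) of DKO cells, where the intervals were apart and independent detection would give 3.58% and 13%. All 4 of these values lay within the intervals of the observed shares. Without thinning these shares were 60.3% and 75.0% in resident-like and 16.6% and 29.8% in C1q-high cells. No T cell-like or B cell-like cell in either library had 2 of the 3.

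**Figure D5:**
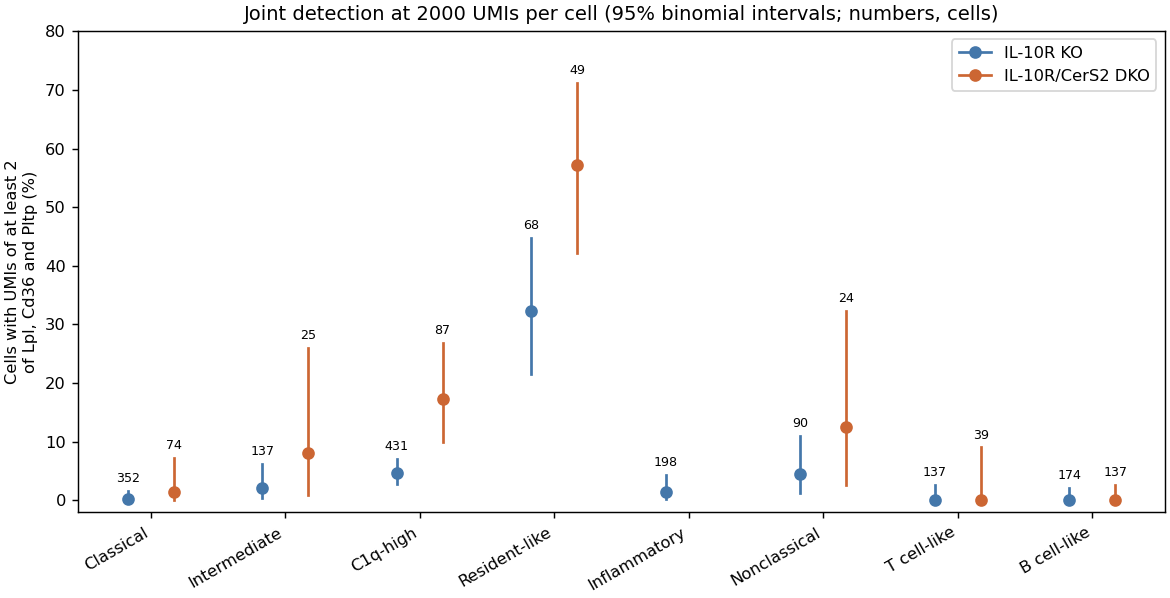
Share of cells (y axis, percent) with a UMI of at least 2 of Lpl, Cd36 and Pltp after thinning each cell to 2000 UMIs, by state (x axis) in KO (blue) and DKO (orange), with 95% binomial intervals and the number of cells above each. Resident-like cells reach 32.4% in KO and 57.1% in DKO, C1q-high cells 4.64% and 17.2%, and lymphocyte-like cells 0.

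A wider list of 42 genes of lipid handling set these values in context, of which 40 passed the filter of 10 UMIs. Of these, 0 were at least 2-fold higher and 7 at least 2-fold lower in the DKO class, beside 6.16% and 4.93% of all genes, and the list's median log2 ratio was −0.04. The uptake group held 4 of the 7. Olr1, an oxidised lipoprotein receptor, went from 81.9 to 24.8 CPM (−1.71, −2.20 to −1.28). Fabp4, a fatty acid binding protein, had 71 KO and 4 DKO UMIs (−1.70, −3.77 to −0.44), and Slc27a1, a fatty acid transporter, had 74 and 6 (−1.23, −2.82 to −0.14). The fourth, Fabp3, had 11 KO and 0 DKO UMIs and was named after its values were seen.

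In the storage group Hilpda, a hypoxia-induced inhibitor of lipolysis, went from 509 to 209 CPM (−1.28, −1.44 to −1.13). Spp1, which encodes osteopontin, went from 141 to 50.2 CPM (−1.48, −1.82 to −1.18), and the sterol synthesis gene Sqle had 55 KO and 3 DKO UMIs (−1.70, −4.23 to −0.28). Hilpda, Olr1 and Spp1 were high in KO inflammatory cells, at 1543, 211 and 457 CPM. With that state left out, Hilpda was at −0.58 (−0.75 to −0.43), Spp1 at −0.69 (−1.04 to −0.37), Slc27a1 at −0.91 (−2.52 to 0.21) and Olr1 at −1.20 (−1.69 to −0.76). Of the 39 list genes then passing the filter, 5 were at least 2-fold lower and 0 at least 2-fold higher. The 5 were Olr1, Fabp3, Fabp4 (−1.92), Sqle (−1.65) and Apoc1 (−1.16). Within C1q-high cells Olr1 was at 73.2 CPM in KO and 13.8 in DKO, Spp1 at 102 and 34.4, and Hilpda at 415 and 305 CPM. Other states differed: in intermediate cells Olr1 was at 0.44 (−0.96 to 1.54), Spp1 at −0.04 (−0.86 to 0.65) and Hilpda at −1.89 (−2.79 to −1.19), and in resident-like cells Hilpda was at 0.29 (−0.23 to 0.81).

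Over the whole class no lysosomal or regulatory gene passed 2-fold. Nceh1, a cholesteryl ester hydrolase, went from 51.5 to 81.2 CPM (0.66, 0.38 to 0.93), Lipa, the lysosomal acid lipase, from 59.6 to 80.1 CPM (0.43, 0.15 to 0.70), and Pparg, which encodes PPARγ, from 6.22 to 11.9 CPM (0.95, 0.13 to 1.68). Without the inflammatory state these ratios were 0.50 (0.21 to 0.77) for Nceh1, 0.29 (0.00 to 0.56) for Lipa and 0.76 (−0.07 to 1.5) for Pparg. The LXR genes Nr1h2 (72.7 and 75.6 CPM) and Nr1h3 (37.1 and 33.3 CPM) had intervals that included 0 over the class. In nonclassical cells Pparg (14 KO and 10 DKO UMIs, 1.62, 0.27 to 2.88) and Nr1h3 (13 and 12, 1.98, 0.71 to 3.22) were at least 2-fold higher in DKO, and Nceh1 (29 and 1, −2.21, −8.12 to −0.18) and Lipa (32 and 3, −1.12, −3.68 to 0.35) at least 2-fold lower. Nr1h3 was at least 2-fold lower in DKO intermediate (37 and 0 UMIs, upper limit −0.97) and classical cells (39 and 3, −1.39, −3.93 to 0.06), where the interval included 0. Among all genes, 9.62% in intermediate and 6.07% in classical cells were at least 2-fold lower. In nonclassical cells 4 of the 32 list genes passing the filter were at least 2-fold higher, beside 9.72% of all genes. Another 5 were at least 2-fold lower, beside 11.1%. The ratios of list genes within states were not recomputed with other gates or with sub-clusters. Tyrobp, the adaptor of TREM2, was at 2573 and 2531 CPM. These genes were picked from the list after their values were seen.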

How the data were processed

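The deposited matrices hold raw UMI counts per gene and barcode. Per the submitters' processing notes the authors used Cell Ranger 6.0.1 (mm10) and Seurat 4.3.0. The study's own cell filter was applied: 300 to 5000 detected genes, and a mitochondrial share of up to 10%. Both libraries were clustered together (Seurat 5.3.0, 2000 variable genes, 30 components, 20 neighbours, resolution 0.3) with the 10 genes, the lipid list and Cers2 left out of the variable genes, and clusters were named from marker lists. States were gated per cell at 2 detected markers and 5 C1q UMIs per 10000, which favours deeper cells. Doublets were kept: Scrublet (scanpy 1.11.5) called 6 KO and 1 DKO barcodes. Class totals were 8680491 KO and 1772560 DKO UMIs. UMIs were summed per state and library. Ratios added 0.5 counts to each sum, and genes needed 10 UMIs over both libraries to be counted against 2-fold. R 4.3.3, edgeR 4.0.16 (TMM), Python 3.11.15 and GENCODE M21 were used. The ratio step was tested on simulated Poisson counts, the model its intervals assume, so spread between cells was not covered by that test.

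The members, marker lists, gates and lipid list were chosen with earlier results of these data known. Named lipid genes had at least 20 UMIs, a 2-fold class-wide ratio and an interval leaving out 0. For each member the 3 genes with the highest correlation of log2(CPM + 1) over state and library were named, among genes with at least 200 UMIs. One such gene is not reported here. Alternatives were stricter cell filters and gates, sub-clusters as states, per-cell classes, doublet removal, TMM scaling, equal cell weights, removal of the richest cell, KO weights of states, other count filters and no thinning.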

Additional observations from a re-analysis of the deposited data

Results flagged for a closer look

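Fabp5, Apoe and Trem2 had counting intervals on opposite sides of 0 in different states. The difference between states was not tested, since each genotype was 1 library. For Fabp5 the log2 ratio of DKO over KO was 0.96 in intermediate cells against −0.54 in C1q-high, −1.71 in resident-like and −2.25 in nonclassical cells. For Apoe it was 0.57 in intermediate and 0.14 in C1q-high cells against −0.51 in classical, −0.16 in resident-like and −0.66 in nonclassical cells. For Trem2 it was 0.87 in resident-like cells and −2.39 in nonclassical cells, the latter from 1 DKO UMI. The intermediate state held 25 DKO cells, and without the richest cell in each library its ratios were 0.44 for Fabp5 and 0.16 for Apoe, both with intervals that included 0. With the class set from markers per cell the Fabp5 ratio there was 0.14, with stricter gates the Apoe ratio was −0.01 in classical and 0.50 in resident-like cells, and with sub-clusters the nonclassical ratios were −0.21 for Fabp5, 0.45 for Apoe and −0.34 for Trem2.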

How the results depend on the processing

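No paired analysis was possible because each genotype was 1 library. Over the class, the signs of Lpl, Cd36, Pltp, Abcg1, Fabp5, Plin2 and Apoe were the same under all 8 alternatives run, and the log2 ratio ranged from 1.27 to 2.07 for Lpl, 0.86 to 1.54 for Cd36, 0.59 to 1.20 for Pltp and −0.76 to −0.47 for Fabp5. Trem2, Abca1 and Gpnmb changed sign under some. In C1q-high cells Lpl (0.87 to 1.76), Cd36 (0.97 to 1.78) and Pltp (0.52 to 1.08) kept their sign under all 10 alternatives. Weighting states as in KO left 1 member at least 2-fold higher in place of 3. Member and state pairs at least 2-fold lower numbered 3, against 1 with stricter gates and 0 with sub-clusters, alternatives that gave fewer states a value. Among ratios whose interval left out 0, signs reversed in resident-like cells with stricter gates (Apoe 0.50, Cd36 −0.73), in nonclassical cells with sub-clusters (Apoe 0.45), and for Gpnmb in intermediate cells without its richest cell (−0.88); the cause was not tested. Ratios whose interval included 0 also changed sign, among them Pltp in resident-like (−0.13), classical (−0.27) and nonclassical cells (0.48), and Trem2 (−0.28), Abca1 (−0.11), Plin2 (0.18) and Gpnmb (0.29) in C1q-high cells. Lpl in intermediate cells went from 1.26 to 0.19 with the highest doublet scores removed. Genes at least 2-fold higher and lower in DKO numbered 1806 and 820 of 14642 with no filter on counts, and 165 and 220 of 8205 with at least 50 UMIs. No sub-cluster was named resident-like or intermediate, so those states had no value there; 1 sub-cluster of 316 KO and 141 DKO cells, named C1q-high, had Lpl at 124 and 299 CPM. Stricter gates left under 20 DKO cells in the intermediate and nonclassical states. Depth limited Gpnmb in every state and Lpl in monocytes.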

Other observations

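Outside the monocyte/macrophage-like class, Apoe was also found in B cell-like cells, at 737 CPM in KO and 710 CPM in DKO, levels close to those of classical monocytes. After thinning it was detected in 38.5% (31.2 to 46.2) of 174 KO and 29.2% (21.8 to 37.6) of 137 DKO B cell-like cells, against 8.03% (4.08 to 13.9) of 137 KO and 0 of 39 DKO T cell-like cells. The B cell share was above that of T cell-like cells from the same library in both genotypes. Lpl and Trem2 had 0 UMIs in all B cell-like cells of both libraries. Pltp was present in cDC2-like dendritic cells at 90.5 CPM in KO (40 of 109 cells) and 85.8 CPM in DKO (16 of 53 cells). Neutrophil-like cells carried Plin2 (513 and 344 CPM) and Abca1 (92.4 and 107 CPM).

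Some levels outside the class rested on 1 cell. Fabp5 was at 160 CPM in KO and 552 CPM in DKO T cell-like cells, but 76 of the 85 DKO UMIs came from 1 cell. Apoe was at 289 CPM in KO cDC2-like cells, where 1 cell held 250 of 284 UMIs.

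Over the 11 units of state and library with at least 20 cells, the gene among 4982 whose log2(CPM + 1) was most correlated with Lpl was Mrc1 (Pearson r = 0.98), followed by Ncstn and Irf2bp2 (0.98 and 0.97). Mrc1 is 1 of the markers that gated the resident-like state. For Pltp they were Adgre1 (0.97), Swap70 (0.96) and Cd83 (0.96), for Cd36 Nckap1l (0.93), Rbbp7 (0.93) and Ptprj (0.91), and for Apoe Ncl (0.98), Nenf (0.96) and Hpgds (0.92). The nearest were Msantd4, Fbxo30 and Ap1b1 for Trem2 (0.94 each), Tulp4, Vamp2 and Blvrb for Abca1 (0.93 to 0.92), and Sms, Taok1 and Dock11 for Abcg1 (0.91 each). For Fabp5 they were Cxcr4, Hps4 and Rbm38 (0.90 to 0.89), for Plin2 Fxyd5 and Xaf1 (0.93 and 0.91), and for Gpnmb Mmp14, Apol7c and Vps29 (0.90 to 0.88). The units share libraries and differ in depth, so these values describe likeness in these 2 libraries. Each value was among the highest of 4982 over 11 units, and what unrelated genes would reach was not tested. Gpnmb had 0 or 1 UMI in several units.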
